A study of Mus musculus with 4 samples.

Results

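Interferon-stimulated genes are genes that cells switch on when interferon reaches them, and many of their products block viruses. The 39 gene names examined here were a given list: interferon receptor chains, signal transducers, RNA sensors and antiviral effectors. A row with the matching symbol was listed for 38 of them among 15500 genes, and Ifit3 was not listed. A mean over the libraries of at least 1 FPKM (mapped fragments scaled by transcript length and library depth) was reached by 26 of the 38, and 12 stayed below it. The rule was a list of names, drawn up with earlier results of these data known.

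The study examined how dietary conjugated linoleic acid (CLA), a group of fatty acid isomers, acts on gene expression in mouse liver, and whether the nuclear receptor PPARα has a part in it. Male Kunming mice, an outbred stock, were bought at 5 weeks of age, kept on chow for 1 week and placed in 4 groups of 6. The Vehicle mice ate chow with 1.5% (w/w) linoleic acid, with vehicle injections where these applied. The CLA mice ate chow with 1.5% (w/w) CLA, an equal mixture of the c9t11 and t10c12 isomers, in place of linoleic acid. The GW6471 mice ate the linoleic acid chow and received 20 mg/kg of GW6471, an antagonist of PPARα, by intraperitoneal injection each day. The CLA+GW6471 mice received both the CLA chow and the injections. The feeding lasted 28 days, livers were taken at zeitgeber time 8, and RNA of 1 liver library per condition was sequenced. The sources used here do not say whether a library came from 1 mouse or from pooled mice, and the conditions with GW6471 rest on the sample labels. Each library was estimated to hold 1.884e+07 to 1.93e+07 fragments. Replicate libraries were lacking, so each difference below is between 2 libraries and carries no test. Where 4 values follow each other with no names, their order is Vehicle, CLA, GW6471, CLA+GW6471.

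The labelled tissue was compared with marker genes. Of 14 listed hepatocyte markers, 6 had a mean of at least 1 FPKM. Albumin (Alb) was at 680 FPKM (Vehicle), 1322 (CLA), 1067 (GW6471) and 620 (CLA+GW6471). The others were Trf at 220 to 351 FPKM, Fgb at 36 to 138, Hnf4a at 47 to 55, Ass1 at 17 to 26 and Apob at 2.3 to 3.9. In contrast, Ttr, Apoh, Fga, Cyp2e1 and Cps1, which hepatocytes make in large amounts, were at no more than 0.11 FPKM in any library. The simple epithelium genes Krt8 and Krt18 were high, at 403 to 491 and 1171 to 1359 FPKM. Sprr1a, a cornified envelope protein gene of squamous epithelium, stood at 15810.2 to 26116 FPKM, and 5 of 10 listed keratinocyte markers had a mean of at least 1 FPKM. Besides Sprr1a these were Sprr1b (36.25 to 61.13 FPKM), Krt5, Ivl and Krt10 (0.89 to 4.29). Krt14, Krt6a, Trp63 and Dsg3 did not exceed 0.05 FPKM, and Krt17 did not exceed 0.1. The near-absent hepatocyte markers and the Sprr1a and Sprr1b levels go against the label in part. Krt8, Krt18 and the abundant hepatocyte markers were not counted against it. The libraries are called liver here only as labelled.

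Type I interferons bind a receptor of the chains IFNAR1 and IFNAR2, and the kinases TYK2 and JAK1 then phosphorylate STAT2. With IRF9 it is part of a complex that binds the interferon-stimulated response element (ISRE) in promoters. Interferon gamma acts through IFNGR1 and IFNGR2 with JAK1 and JAK2, and its target promoters carry the gamma-activated site (GAS). In liver this response is known from hepatitis virus infection and from Kupffer cells, and a low tonic level of it is found without infection.

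Promoter sequences of RefSeq (build GRCm38.p6), 300 bases each from 250 before to 50 after a transcript start, were on hand for 31 of the 39 genes. Both strands were searched for the ISRE core GAAANNGAA, which reads TTCNNTTTC on the other strand, and for the GAS TTCNNNGAA, which reads the same on both. The ISRE core was present for 17 of the 31 genes (54.8%), against 9.76% of 27025 genes with a window. The GAS was present for 11 of the 31 (35.5%), against 9.55% of the same genes, and 1 GAS match in the members overlapped an ISRE match. Usp18, Mx1, Mx2, Dhx58, Oas2, Rtp4, Parp9 and Parp14 had no window in the table. The stretches below come from the promoters of 5 genes described in the results, picked by name and not by a rule. They are shown so that the element can be read in its surroundings. Each runs 5′ to 3′ on the strand of its gene, with ISRE core matches in capitals.
Stat2 (chr10:128270267-128270295, plus strand): gcaccctggtTTCAGTTTCctttccctag
Ifih1 (chr2:62646339-62646387, minus strand): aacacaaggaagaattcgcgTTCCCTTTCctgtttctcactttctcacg
Isg15 (chr4:156200856-156200916, minus strand): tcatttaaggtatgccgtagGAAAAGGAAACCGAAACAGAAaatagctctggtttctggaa
Rsad2 (chr12:26456543-26456591, minus strand): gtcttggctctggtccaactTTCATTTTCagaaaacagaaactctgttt
Gbp2 (chr3:142620585-142620633, plus strand): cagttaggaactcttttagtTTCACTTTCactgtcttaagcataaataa
In Isg15 the capitals hold 3 overlapping matches, and in the other 4 stretches 1 each. The Stat2 stretch, 203 to 231 bases before the start, also lies within the span of the neighbouring gene Apof. A match is a description of the letters and not a measured binding site.

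**Figure D1:**
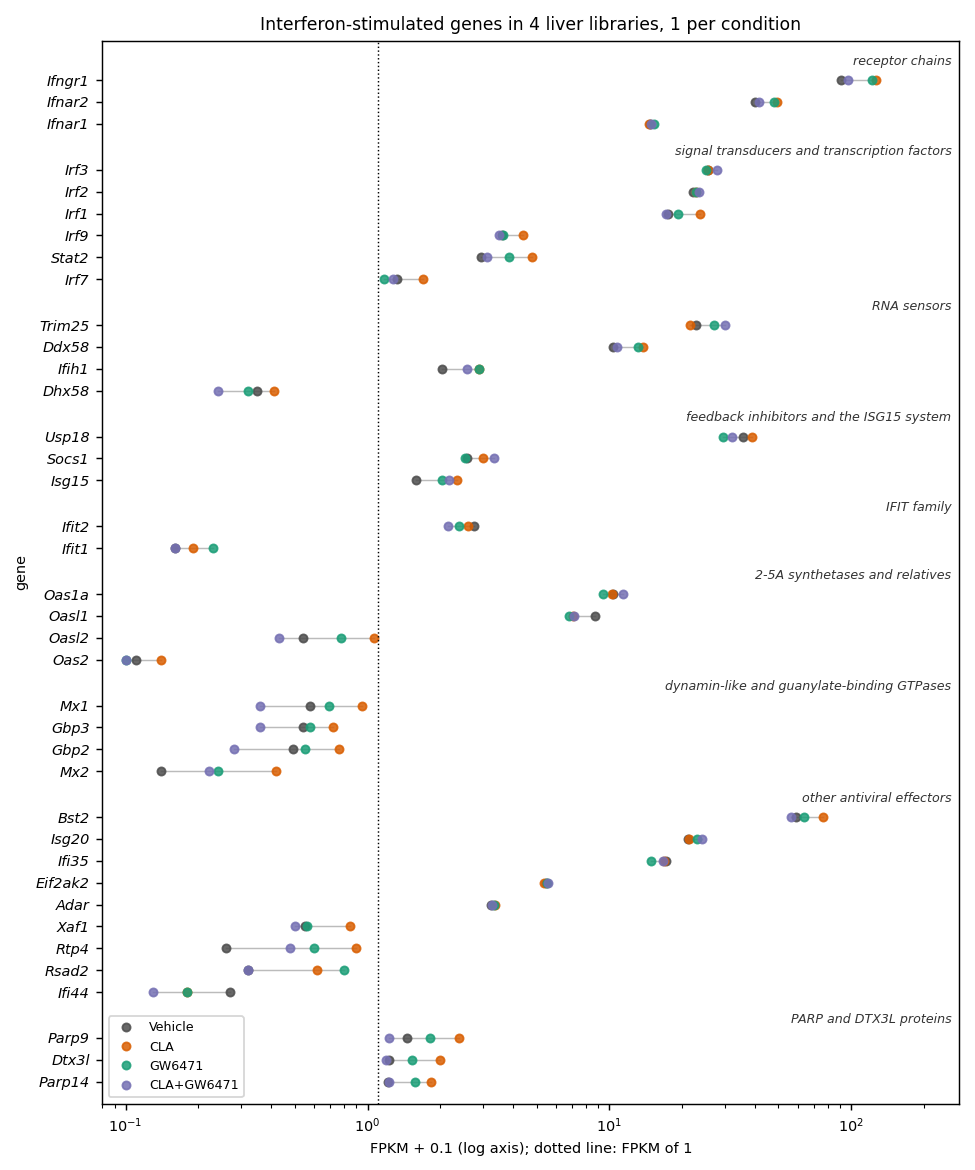
FPKM + 0.1 on a log axis for the 38 listed genes, grouped by role, with 1 point for each of the 4 libraries; the dotted line marks an FPKM of 1. Ifngr1, Bst2 and Ifnar2 lie farthest to the right, while the Mx, guanylate-binding and several effector genes stay left of the line in every library.

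The share of the interferon-stimulated genes past the filter, 68.4%, was near that of all 15500 genes, 66.8%. Their median mean FPKM was 2.63, against 5.97 for all genes, and single genes ran from 0.0125 for Oas2 to 109 for Ifngr1. All 26 genes past the filter were above 1 FPKM in each library, and all 12 others were below 1 in each. Summed over the 38 genes, the FPKM was 426 (Vehicle), 510 (CLA), 474 (GW6471) and 441 (CLA+GW6471). Most of the difference between Vehicle and CLA came from Ifngr1, Bst2 and Ifnar2. They were at 90.90, 59.01 and 39.80 FPKM in Vehicle and at 126.62, 76.61 and 49.44 in CLA. In RNA of whole tissue, fewer cells of a type and less RNA per cell cannot be told apart.

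A ratio is given as log2 of (FPKM + 0.1), which understates differences of low genes, and a gene was counted as higher or lower from 1.5-fold. CLA was higher than Vehicle for 4 of the 26 genes (15.4%), against 7.34% of the 10355 genes past the filter, and lower for 0, against 4.97%. The 4 were Stat2, Parp9, Dtx3l and Parp14, and Parp14 lay exactly at 1.5-fold. The median ratio of the 26 was 0.25, with 18 above 0 and 8 below, beside a median of -0.0071 over all genes. Over the 15 members with a mean of at least 5 FPKM the median was 0.013. The approximate 95% counting interval of the ratio lay above 0 for 11 of the 26 and below 0 for 1 (Oasl1), while over all genes with a length it lay above 0 for 32.1% and below 0 for 33.5%. These intervals cover counting error alone and leave out the differences between mice.

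GW6471 against Vehicle gave 0 of 26 genes higher and 0 lower, where 3.29% and 2.11% of all genes were counted. The median was 0.086, beside -0.0041 over all genes. CLA+GW6471 was lower than CLA for 3 of the 26 genes (11.5%), Stat2, Parp9 and Dtx3l, against 9.17% of all genes, and higher for 0, against 6.85%. The median of that comparison was -0.21, beside 0.0090, and 0.016 over the 15 more abundant members. It shares the CLA library with CLA against Vehicle, so a high value of that library alone would move both. CLA+GW6471 against GW6471 gave 0 higher and 0 lower, against 2.83% and 3.89% of all genes, with a median of -0.036 beside 0.0041. The counts of 3 and 4 genes were thus small, and among genes past the filter the share lower in CLA+GW6471 than in CLA was close to that of all genes.

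**Figure D2:**
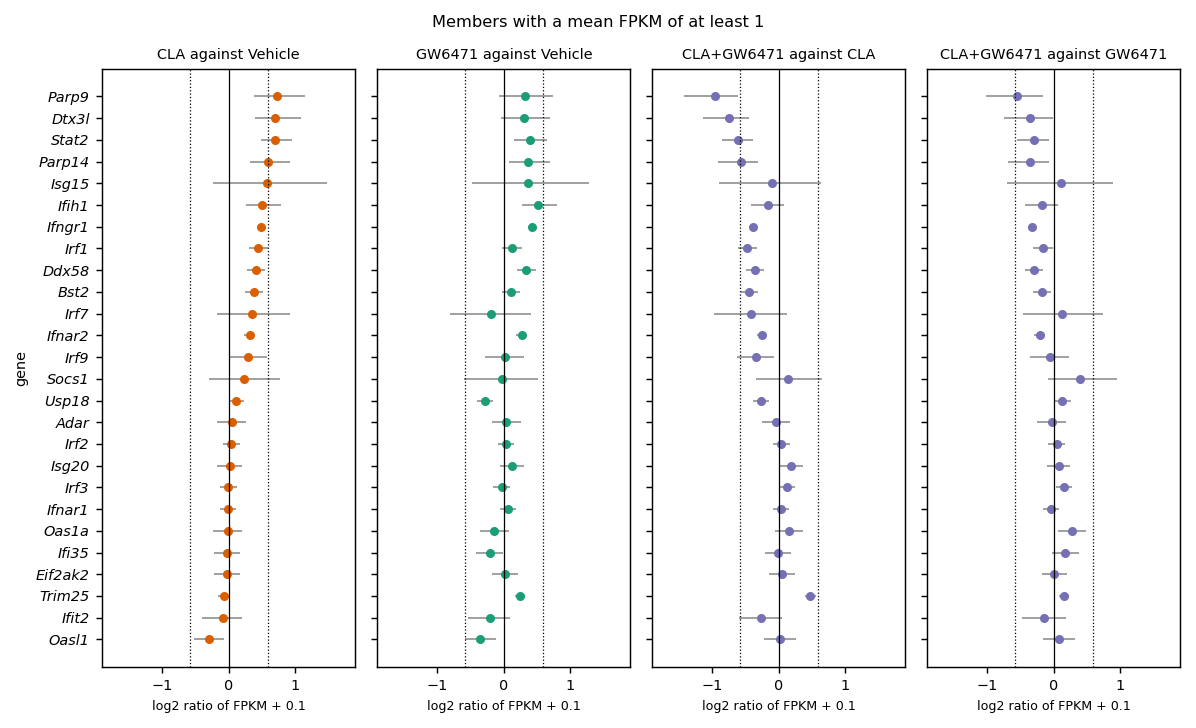
Log2 ratio of FPKM + 0.1 of the 26 genes past the filter in the 4 comparisons; grey lines are approximate 95% counting intervals, and dotted lines mark 1.5-fold. The ratios of Parp9, Dtx3l, Stat2 and Parp14 are the highest for CLA against Vehicle, where the genes from Adar down to Eif2ak2 lie within 0.05 of 0.

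The 3 receptor chains were all well above the members' median level. Ifngr1, the ligand-binding chain for interferon gamma, was at 90.90 FPKM (Vehicle), 126.62 (CLA), 122.16 (GW6471) and 96.91 (CLA+GW6471). Both single treatments were thus above the other libraries, with a ratio of 0.48 for CLA against Vehicle and -0.39 for CLA+GW6471 against CLA. Ifnar2, a chain of the type I receptor, stood at 39.80, 49.44, 47.97 and 41.42 FPKM. It had the same order as Ifngr1, with a CLA ratio of 0.31, and its exons share 569 bases with Il10rb on the same strand, so that reads there could be counted for either gene. Ifnar1, its partner chain, was at 14.55, 14.47, 15.21 and 14.78 FPKM and differed little among the libraries.

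Among the signal transducers, Stat2 (mm9, chr10:127707629-127729905, plus strand), the STAT particular to type I and III interferon signalling, differed most. Its FPKM was 2.85 (Vehicle), 4.67 (CLA), 3.76 (GW6471) and 3.03 (CLA+GW6471). CLA was the highest library and GW6471 the next, while Vehicle and CLA+GW6471 lay close together. The CLA ratio of 0.69 had a counting interval from 0.48 to 0.95, and CLA+GW6471 against CLA was at -0.61 with an interval from -0.86 to -0.40. Irf9, its DNA-binding partner, was at 3.51, 4.30, 3.54 and 3.38 FPKM, with CLA the highest library and a ratio of 0.29.

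Interferon regulatory factors differed from one another. Irf1, which both interferon types induce and whose promoter window held a GAS, was at 17.42 FPKM (Vehicle), 23.70 (CLA), 19.03 (GW6471) and 17.04 (CLA+GW6471). The CLA library was above the other 3, with a ratio of 0.44 to Vehicle (counting interval 0.30 to 0.59). Irf7, which amplifies type I interferon production, was at 1.23, 1.59, 1.07 and 1.17 FPKM, a ratio of 0.35 whose counting interval of -0.18 to 0.91 held 0. Irf2, an antagonist of Irf1, ran from 22.13 to 23.32 FPKM, and Irf3, which acts before interferon is made, from 24.94 to 27.70. The ratios of Irf2 and Irf3 lay within 0.16 of 0 in all 4 comparisons. Irf1, Irf3, Irf7 and Irf9 share 135, 88, 45 and 123 exon bases with Gm17334, Bcl2l12, Phrf1 and Rnf31, so that reads there could be counted for either gene. The same holds for Ifi35 (290 bases), Eif2ak2 (174 and 47), Dhx58 (141) and Oasl1 (38), each with a gene on the opposite strand.

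The sensors of viral RNA were led by the helicases RIG-I and MDA5. Ddx58, which encodes RIG-I, was at 10.29 FPKM (Vehicle), 13.69 (CLA), 13.05 (GW6471) and 10.63 (CLA+GW6471). Ifih1, which encodes MDA5, was at 1.94, 2.79, 2.80 and 2.47 FPKM. Vehicle was the lowest library for both genes, and both single treatments were alike, with CLA ratios of 0.41 and 0.50 and GW6471 ratios of 0.34 and 0.51. Trim25, a ubiquitin ligase that activates RIG-I, took another order, 22.69, 21.54, 26.87 and 29.89 FPKM, with the 2 GW6471 libraries highest and CLA+GW6471 above CLA by 0.47. Dhx58, which encodes the helicase LGP2, stayed between 0.14 and 0.31 FPKM.

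Isg15 encodes a ubiquitin-like protein that is attached to other proteins, and Usp18 the protease that removes it and blocks the type I receptor. Isg15 was at 1.48 FPKM (Vehicle), 2.24 (CLA), 1.93 (GW6471) and 2.08 (CLA+GW6471). All 3 treated libraries were above Vehicle, but the values rest on an estimated 21 to 32 fragments, and the counting interval of the CLA ratio of 0.57 ran from -0.23 to 1.47. Usp18 was far more abundant, at 35.70, 38.64, 29.40 and 32.12 FPKM, with the 2 GW6471 libraries below the other 2. Socs1, an inhibitor of the JAK kinases, ran from 2.42 to 3.22 FPKM and was highest in CLA+GW6471, and all its counting intervals held 0.

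Parp9, Dtx3l and Parp14 lie together on chromosome 16. In mm9 Parp14 spans 35832960 to 35871630 on the minus strand, Dtx3l 35926597 to 35939237 on the minus strand and Parp9 35938556 to 35972691 on the plus strand. PARP9 and the ubiquitin ligase DTX3L work as a complex, and PARP14 is a related ADP-ribosyltransferase. Parp9 was at 1.35 FPKM (Vehicle), 2.29 (CLA), 1.71 (GW6471) and 1.13 (CLA+GW6471). Dtx3l was at 1.13, 1.89, 1.42 and 1.09 FPKM, and Parp14 at 1.12, 1.73, 1.47 and 1.13. The order was the same for all 3 down to GW6471: CLA highest, GW6471 next, and the other 2 libraries lower. The CLA ratios were 0.72 for Parp9, 0.69 for Dtx3l and 0.58 for Parp14, with lower counting bounds of 0.38, 0.40 and 0.33. CLA+GW6471 against CLA gave -0.96, -0.74 and -0.57. Parp9 and Dtx3l share 458 exon bases on opposite strands, and the library kit as named does not mark strand, so their values are not independent of each other.

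The oligoadenylate synthetases make the activator of RNase L, which degrades RNA. Oas1a was at 10.27 FPKM (Vehicle), 10.14 (CLA), 9.30 (GW6471) and 11.28 (CLA+GW6471), and Oasl1, which lacks the synthetase activity, at 8.6, 6.99, 6.72 and 7.07. Oasl1 was the 1 gene past the filter whose CLA ratio, -0.30, had a counting interval below 0 (-0.53 to -0.07). Oasl2 was lower in level, at 0.44, 0.96, 0.68 and 0.33 FPKM, and Oas2 did not exceed 0.04. Close copies of the Oas1, Ifit, Gbp and Mx genes share reads, and the sources used here do not say how the counting divided them, so the values of single members of these families are uncertain. Ifit2, of a family that binds viral RNA, was at 2.65, 2.49, 2.28 and 2.05 FPKM, and Ifit1 was at 0.06 to 0.13.

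Bst2 encodes tetherin, which holds budding virus at the cell surface, and was at 59.01 FPKM (Vehicle), 76.61 (CLA), 63.65 (GW6471) and 56.35 (CLA+GW6471). The CLA library was the highest, with a ratio of 0.38 to Vehicle (counting interval 0.25 to 0.51). The exonuclease gene Isg20 ran from 21.11 to 24.14 FPKM, Ifi35 from 14.70 to 17.04, Eif2ak2, which encodes the RNA-activated kinase PKR, from 5.29 to 5.46, and the RNA-editing enzyme gene Adar from 3.15 to 3.25. Their CLA ratios all lay within 0.05 of 0.

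The other 12 members stayed below 1 FPKM. Mx1, a dynamin-like GTPase that blocks influenza viruses in mice, was at 0.48 FPKM (Vehicle), 0.85 (CLA), 0.59 (GW6471) and 0.26 (CLA+GW6471), an estimated 17 to 54 fragments. Rsad2, which encodes viperin, was at 0.22, 0.52, 0.70 and 0.22 FPKM, and Gbp2, a guanylate-binding protein induced by interferon gamma, at 0.39, 0.66, 0.45 and 0.18. Mx1 and Gbp2 were highest in CLA and lowest in CLA+GW6471, while Rsad2 was highest in GW6471. Rtp4 was at 0.16, 0.80, 0.50 and 0.38 FPKM, from 5 fragments in Vehicle to 24 in CLA, and Mx2 at 0.04, 0.32, 0.14 and 0.12, from 2 to 15 fragments. The counting intervals of the CLA ratios, 0.84 to 4.01 for Rtp4 and 0.80 to 6.08 for Mx2, were wide. Xaf1 was at 0.45, 0.75, 0.46 and 0.40 FPKM, Gbp3 at 0.44, 0.62, 0.48 and 0.26, and Ifi44 at 0.17, 0.08, 0.08 and 0.03.

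Of these 12 low genes, 7 were higher in CLA than in Vehicle by at least 1.5-fold (58.3%), namely Mx1, Mx2, Gbp2, Oasl2, Rsad2, Rtp4 and Xaf1, against 13.6% of the 5145 genes below the filter. Ifi44 was the 1 lower gene, against 10.9%. CLA+GW6471 was below CLA for 9 of the 12 (75.0%), against 14.7%, and below GW6471 for 5 (41.7%), against 10.7%. The 9 were Mx1, Mx2, Gbp2, Gbp3, Oasl2, Rsad2, Rtp4, Xaf1 and Dhx58. GW6471 was above Vehicle for 3 of the 12 (25.0%), Mx2, Rtp4 and Rsad2, against 10.3%. All these values come from few fragments, and the comparisons with CLA share 1 CLA library. For CLA against Vehicle the counting intervals of Gbp2 and Xaf1 held 0. For CLA+GW6471 against CLA those of Mx2, Rtp4 and Dhx58 did. The 5145 genes reach down to a mean of 0.0025 FPKM, where the added 0.1 keeps ratios small, and were not matched in level to the members.

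Across the libraries, 14 of the 26 genes past the filter were highest in CLA (53.8%), against 34.7% of all genes past the filter. Both single treatments were above both Vehicle and CLA+GW6471 for 12 of the 26 (46.2%), against 30.2%, and below both for 3 (11.5%), against 31.8%. The 12 included Ifngr1, Ifnar2, Stat2, Irf1, Irf9, Bst2, Ddx58, Ifih1, Parp9, Parp14, Dtx3l and Adar. The difference between these shares was not tested. For 6 of the 12 (Irf1, Irf9, Bst2, Parp9, Dtx3l and Adar) the counting interval of GW6471 against Vehicle held 0, and for Adar, at 3.15 to 3.25 FPKM, so did those of all 4 comparisons. CLA ratios without and with GW6471, which share no library, had opposite signs for 18 of the 26 genes (69.2%), against 73.0% of all genes. Of the 18 genes above 0 with CLA alone, 12 were below 0 when CLA was added to GW6471 (66.7%, against 73.0% of all genes). An opposite sign was thus about as frequent in these genes as in the rest of the table.

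**Figure D3:**
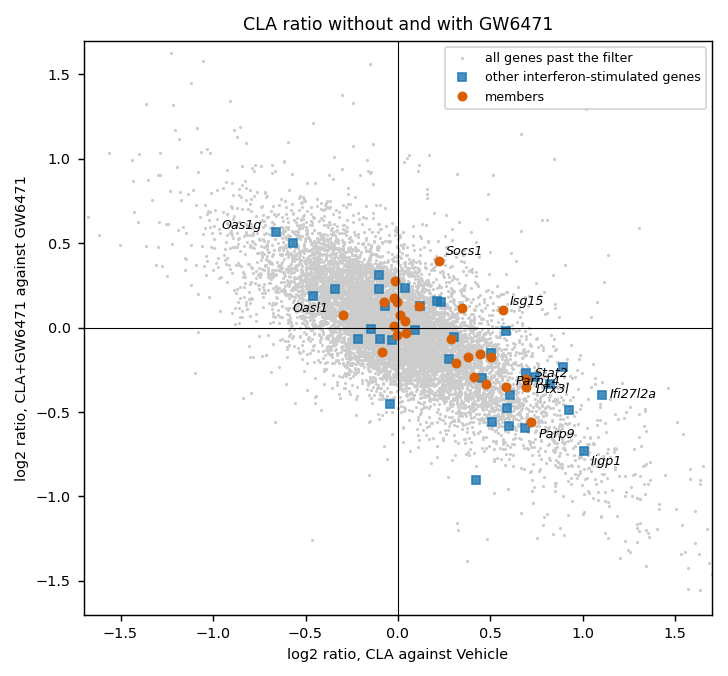
Log2 ratio of CLA to Vehicle (horizontal) against the log2 ratio of CLA+GW6471 to GW6471 (vertical) for the genes past the filter, with 26 members in orange, 35 other interferon-stimulated genes in blue and all genes in grey. Parp9, Dtx3l, Stat2 and Parp14 lie at the lower right, above 0.5 on the horizontal axis and below 0 on the vertical, inside the slanted cloud of all genes.

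Genes of the pathway outside the members were examined as lists. Of 21 names of interferon ligands, 3 were listed, and none exceeded 0.18 FPKM in any library. Of 8 further receptor and JAK-STAT genes, all past the filter, 0 reached 1.5-fold in any comparison, where 2.11% to 9.17% of all genes did in a given direction. Jak2 fell just short of it for CLA+GW6471 against CLA, at -0.584. Jak2, the kinase of the interferon gamma receptor, was at 53.21 FPKM (Vehicle), 73.34 (CLA), 68.65 (GW6471) and 48.88 (CLA+GW6471), and Tyk2 at 3.98, 5.32, 4.76 and 3.79. Both were higher in the single treatments than in the other 2 libraries, as Ifngr1 was, with CLA ratios of 0.46 and 0.41. Il10rb, a chain of the interferon lambda receptor, was at 15.96, 15.99, 15.04 and 21.71 FPKM and stood out in CLA+GW6471 only.

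Of 12 nucleic acid sensing genes past the filter, 0 reached 1.5-fold for CLA against Vehicle (7.34% and 4.97% of all genes were higher and lower), and 1 (8.33%, against 9.17% of all genes), the kinase gene Ikbke, was lower in CLA+GW6471 (9.80 FPKM) than in CLA (15.89), beside 10.98 in Vehicle and 12.56 in GW6471. The antiviral protein gene Zc3hav1 was lowest in CLA, at 26.87 FPKM, against 36.69 to 37.93 in the other 3 libraries. Myd88, the adaptor of Toll-like receptors, was also lowest in CLA, at 7.57 FPKM against 8.69 to 10.01. The sensing genes had a median CLA ratio of -0.033.

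Of 10 other regulatory factors and feedback inhibitors past the filter, 1 was higher in CLA than in Vehicle (10%, near the 7.34% of all genes). This was Irf5, a factor of macrophages and B cells, at 2.71 FPKM (Vehicle), 5.24 (CLA), 3.71 (GW6471) and 2.66 (CLA+GW6471). Its CLA ratio was 0.93, and CLA+GW6471 against CLA was at -0.95. Socs3, a JAK inhibitor, was at 20.25, 26.87, 22.14 and 18.73 FPKM, and the phosphatase gene Ptpn1 at 27.38, 21.16, 23.50 and 28.99, with CLA the lowest.

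Of 35 other interferon-stimulated genes past the filter, 11 were higher in CLA than in Vehicle (31.4%, against 7.34% of all genes) and 1, Oas1g, was lower (against 4.97%). CLA+GW6471 was below CLA for 12 of them (34.3%, against 9.17%) and above it for 3 (8.57%, against 6.85%), and the medians were 0.28 and -0.24. GW6471 was above Vehicle for 3 (8.57%, against 3.29%) and below it for 0, and CLA+GW6471 was below GW6471 for 4 (11.4%, against 3.89%) and above it for 0. Ifi27l2a, a small mitochondrial membrane protein gene, had the widest spread, at 8.20 FPKM (Vehicle), 17.76 (CLA), 9.22 (GW6471) and 6.98 (CLA+GW6471). Slfn2 was highest in GW6471, at 3.11 FPKM against 1.42 to 1.94, and Oas1c was at 0.90, 1.80, 1.19 and 0.82. The next 3 genes were chosen after their values were seen. Ifitm2 and Ifitm3, which block virus entry, were at 262, 424, 323 and 268 and at 148, 224, 174 and 125 FPKM, with CLA ratios of 0.69 and 0.59. Iigp1, an immunity-related GTPase, was at 1.87, 3.85, 3.76 and 2.23 FPKM, high in both single treatments. This list had a larger share of genes beyond 1.5-fold than the members, and the difference between the lists was not tested.

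**Figure D4:**
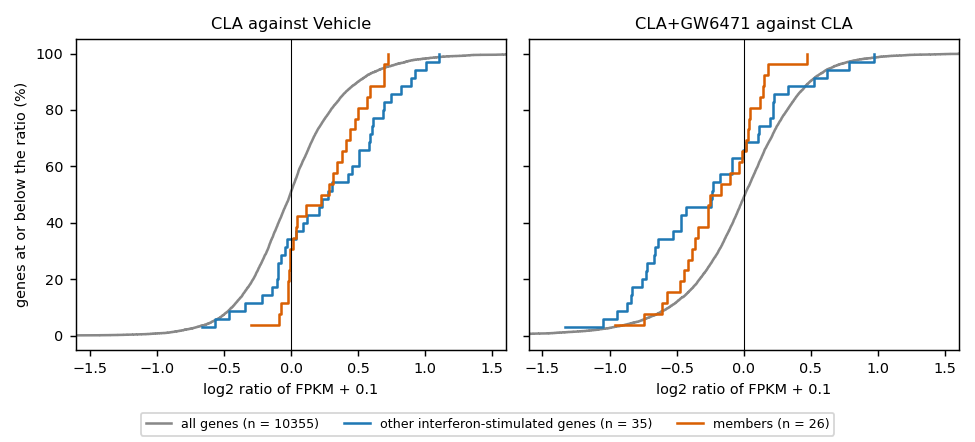
Share of genes at or below each log2 ratio, for CLA against Vehicle (left) and CLA+GW6471 against CLA (right): the 26 members, the 35 other interferon-stimulated genes and all 10355 genes past the filter. The curves of the members and of the other interferon-stimulated genes lie to the right of that of all genes over most of the left panel, at medians of 0.25 and 0.28 against -0.0071, and to its left over most of the right panel.

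Markers of cell types moved as well. Summed FPKM of the 14 listed hepatocyte markers was 1022 (Vehicle), 1892 (CLA), 1546 (GW6471) and 952 (CLA+GW6471), mostly from Alb. Of the 6 markers past the filter, 4 were at least 1.5-fold higher in CLA than in Vehicle (66.7%, against 7.34% of all genes). The sum was higher in both single treatments than in the other 2 libraries, as Stat2 and Ifngr1 were. Fgb took the order of the sum, at 45.22, 138.03, 86.43 and 35.68 FPKM. Hnf4a took another order, at 54.53, 47.31, 47.23 and 51.84 FPKM. For the 5 listed macrophage markers the sum was 24.5, 37.0, 26.0 and 25.3 FPKM, nearly all from Cd68, while Emr1, Cd5l and Lyz2 did not exceed 0.39 and Csf1r 0.91. Of the plasmacytoid dendritic cell markers, Tcf4 was at 29.98, 39.88, 34.51 and 25.30 FPKM, Ccr9 did not exceed 0.02, and Bst2 is itself a member. The part of hepatocyte, macrophage or dendritic cell RNA in the results was not tested. The listed markers of T or NK cells, B cells and neutrophils summed to no more than 0.15 FPKM in any library, and those of endothelium to no more than 0.94. The stellate cell or fibroblast sum of 1148 to 1506 FPKM was nearly all Dcn, with Col1a1 at no more than 0.33 and Col3a1 at no more than 0.01. The keratinocyte sum, nearly all Sprr1a, took another order, 19113 (Vehicle), 15865 (CLA), 18838 (GW6471) and 26181 (CLA+GW6471).

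Promoter motifs were set beside the ratios. The 11 genes past the filter with an ISRE core in their window had a median CLA ratio of 0.22, from -0.07 to 0.69, and the 12 with a window but no match 0.15, from -0.30 to 0.69. Both ranges overlapped almost fully. With and without a match, the medians were 0.11 and 0.038 for GW6471 against Vehicle. They were -0.039 and -0.26 for CLA+GW6471 against CLA, and 0.0078 and -0.053 for CLA+GW6471 against GW6471. Stat2, Ifih1 and Isg15, whose stretches are printed above, had CLA ratios of 0.69, 0.50 and 0.57. Rsad2 and Gbp2, printed too but below the filter, had 0.95 and 0.63. The printed genes thus do not stand for all genes with the element. The others past the filter with an ISRE core included Ddx58 (0.41), Bst2 (0.38) and Socs1 (0.22). Adar (0.04), Irf2 (0.04), Oas1a (-0.02) and Eif2ak2 (-0.02) also had one. Dtx3l reached 0.69 with neither element in its 300 bases, and Trim25, with 1 ISRE core, was at -0.07.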

How the data were processed

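RNA of 4 libraries labelled as liver, 1 for each of Vehicle, CLA, GW6471 and CLA+GW6471, was sequenced by the authors, mapped to mm9 with BWA and Bowtie and quantified with Cufflinks (versions not stated in the sources used here). The authors deposited FPKM with 2 decimals. The table names no unit, which was taken from the study's supplementary material. Conditions came from the sample labels. No column was left unused. The members and gene lists were chosen with earlier results of these data known. All members are named. From each related list the rule names at most 3 genes, those with the largest ratio in any comparison at a mean FPKM of at least 1, and from marker lists the highest markers and those near 0. Ifitm2, Ifitm3, Iigp1, Oas1g and the remaining keratinocyte markers were named after their values were seen. So were the hepatocyte markers Trf, Fgb, Hnf4a, Ass1 and Apob.

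The deposited FPKM entered with no further scaling, and 0.1 was added for log2. Genes were counted from 1.5-fold where the mean FPKM was 1 or more. No count model could be used, and no test between conditions was made. Depth was estimated from the FPKM steps of genes under 1000 nt with 1 annotated transcript, 146 to 155 values per library. The Clopper-Pearson intervals (95%, exact) use these depths and GENCODE vM1 lengths without the 0.1, are approximate, and cover counting error only. Gene positions are mm9 (GENCODE vM1). Promoter windows are RefSeq, GRCm38.p6. The steps were tested on simulated data built from the same lengths and known depths, which does not show how well the real depths were estimated. In the libraries the step score, which is 1 when all values are whole steps, was 0.46 to 0.54. Alternatives were the added constant, the filter, the scaling and the fold. The work ran in Python 3.11.15 (scipy 1.17.1, pandas 2.3.3, numpy 2.4.6; figures by matplotlib 3.10.9).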

Additional observations from a re-analysis of the deposited data

Results flagged for a closer look

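Among the flagged genes past the filter, 10 were at least 1.5-fold higher in CLA than in Vehicle. Their ratio of CLA+GW6471 to GW6471 was below 0, with both counting intervals away from 0. Some of these genes were named after their values were seen. Oas1g and Sprr1b had ratios of the opposite sign, at least 1 of them past 1.5-fold. The CLA ratio with GW6471 minus that without it (log2) was -1.28 for Parp9, -1.05 for Dtx3l, -0.996 for Stat2 and -0.937 for Parp14 among the members. Outside them it was -1.73 for Iigp1, -1.39 for Irf5, -1.07 for Ifitm3, -0.961 for Ifitm2, -1.74 for the hepatocyte gene Alb, -1.33 for the squamous gene Ivl, 1.23 for Oas1g and 1.08 for Sprr1b. For the hepatocyte markers Fgb and Trf, which met the same limits as the 10, it was -2.88 and -1.19. Each difference rests on 4 single libraries and was not tested. Parp9 and Dtx3l share exon bases. Opposite signs beyond both counting intervals, under a 1.5-fold limit and in either direction, were found for 960 of the 10355 genes past the filter. Among them were 4 of the 26 members and 9 of the 35 other interferon-stimulated genes. By sign alone, without the intervals, 715 of the 760 genes past the filter that were at least 1.5-fold higher in CLA than in Vehicle had a ratio of CLA+GW6471 to GW6471 below 0.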

How the results depend on the processing

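Each condition had 1 library, so mouse-to-mouse spread is unknown, and the depth limits the genes below 1 FPKM, which hold few fragments. No paired analysis was possible because each condition has 1 library. The medians of the genes kept their direction under the alternatives, except at a mean FPKM of at least 5. There, over 15 genes, the median was 0.013 for CLA against Vehicle and 0.064 for GW6471 against Vehicle, and it changed sign to 0.016 for CLA+GW6471 against CLA and to 0.042 for CLA+GW6471 against GW6471. With 1 added in place of 0.1, 0 genes were higher in CLA than in Vehicle (5.32% of all genes) and 1 was lower in CLA+GW6471 than in CLA (7.22%). From 2-fold, and likewise at a mean FPKM of at least 5, both of these counts were 0 (1.79% and 2.67% of all genes from 2-fold, 5.48% and 7.28% at the stricter filter). At a mean FPKM of at least 5, 11 genes had opposite CLA signs (73.1% of all genes) and 6 were highest in CLA (34.1%). With 0.01 added, or with all libraries scaled to the same FPKM sum, 1 gene was lower in CLA+GW6471 than in GW6471 (4.12% and 5.29% of all genes). With no filter, over 38 genes, CLA was higher than Vehicle for 11 (9.41% of all genes) and lower for 1 (6.95%), GW6471 was higher for 3 (5.63%) and lower for 1 (5.23%), CLA+GW6471 was lower than CLA for 12 (11.0%) and than GW6471 for 5 (6.14%), 28 genes had opposite CLA signs (60.2%) and 23 were highest in CLA (33.6%). Single ratios of the members changed sign in 5 of 608 cases, the largest of them 0.042 in size. Of 90 list values under alternatives, 72 stayed within the bounds set for them. The causes of these shifts were not tested, apart from the fewer or added genes that a filter brings.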
